A study of Mus musculus with 4 samples.

Results

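Serpins, cystatins and other small protein inhibitors of proteases were followed in muscle that lacks corticotropin-releasing factor receptor 2, the receptor of the urocortin peptides. The set held every probe set whose only gene symbol in the platform annotation began with Serpin, Cst, Spink or Spint, or was Slpi, without the unrelated Cstf genes. This gave 41 probe sets of 32 genes, out of 12422 probe sets tested, of which 10833 had 1 symbol. A further 4 probe sets carried several symbols of these families and were kept apart. The samples were gastrocnemius and soleus muscles of male Crhr2-/- mice (KO) and their Crhr2+/+ littermates (WT), all on a C57BL/6x129 background, 6.5 months old, fed chow and untreated. Each genotype had 4 mice, whose RNA went into 2 pools (2 mice each), and every pool was measured on 1 Affymetrix U74Av2 array. So n is 2 arrays per genotype, and errors come from the spread between pools. Errors of fold changes also draw on the spread of all other probe sets. The labels do not say how the Crhr2 allele was made.

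Serpins are a family of proteins that trap a protease: the protease cuts an exposed loop of the serpin, and the 2 molecules stay locked together. A number of serpins have lost this activity and carry hormones or fold collagen instead. Cystatins plug the active site of cysteine proteases such as the cathepsins, and the WAP, Kazal and Kunitz inhibitors (Slpi, Spink and Spint genes) block trypsin-like and elastase-like serine proteases. Many plasma serpins are made mainly in liver, whereas the clade B serpins stay inside cells.

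Crhr2 itself read 100.4 and 75.1 in KO muscle, against 154 and 192 in WT muscle, on its brighter probe set, with signal intensity in arbitrary units. Its dimmer probe set overlapped between genotypes, reading 36.7 and 22.7 in KO and 18.8 and 45.3 in WT. The place of either probe set relative to the deletion is unknown here, so this is a limited check of the labels. All 15 skeletal muscle markers measured were above the median probe set, with a median log2 fold change (KO over WT) of 0.01. Of the 12 marker lists, the exocrine pancreas and liver lists stood farthest from 0, with medians of 1.86 and -0.56, and the medians of the other 10 lay between -0.12 and 0.41. For actin, the 3'/5' ratio, which tracks how intact the labelled RNA was, stood at 0.729 and 0.866 in KO and 0.624 and 0.686 in WT. For Gapdh it stood at 1.04 and 0.988 in KO and 0.889 and 0.914 in WT. Both ratios were thus higher in KO without overlap, and the part of RNA quality in the results was not tested.

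No protease inhibitor gene passed the test. This does not show similar signals, since 22 of the 41 probe sets were below the median and many were loosely measured. With limma's adjusted p under 0.05, 0 of 41 probe sets were called, as were 0 of 12422 overall (0.0%), and the smallest adjusted p was 0.803. At an unadjusted p under 0.05 there were 5 of the 41 (12.2%), beside 5.43% of all probe sets. The 5 were Serpina1b, Serpina1e, 1 of 4 probe sets of Slpi, Serpinb6a and Serpini1. An exact two-sided permutation test of 2 against 2 arrays cannot give less than p = 0.333. Signals were taken as log2(intensity + 14), which understates changes of dim genes, and fold changes are given with the standard error of the limma fit.

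By level, the inhibitors ranged from 4.65 for Cst9 to 5767 for Cst3, as means of 4 arrays, and 19 of the 41 probe sets were above the median of all probe sets (68.7). In KO, 16 were higher and 25 lower on average, with a median log2 fold change of -0.05, against 0.0001 over all probe sets. The genotypes did not overlap in 13 of 41 cases (31.7%), beside 34.6% of all probe sets, with 4 higher and 9 lower in KO, beside 17.0% and 17.6%. A difference of at least 1.5-fold without overlap was found in 7 of the 41 (17.1%), beside 8.77% of all probe sets. Of these 7, 1 was higher in KO (Serpini1, 2.44%, beside 4.62%) and 6 were lower (14.6%, beside 4.15%): 4 probe sets of Serpina1 copies, 1 of Slpi and Serpinc1. This split shifted with 1 array left out: 4 higher and 5 lower without KO replicate 1, and 2 and 7 without KO replicate 2. It was 5 higher and 8 lower without WT replicate 1, and 1 and 7 without WT replicate 2. Leaving out an array loosens the no-overlap rule for every probe set. The share over all probe sets was not counted there, so these counts cannot be set against 8.77%. All 7 were kept without KO replicate 2 or WT replicate 1, and 5 without KO replicate 1 or WT replicate 2. The Serpina1 copies share sequence and so count as little more than 1 measurement. Without them 3 of 37 probe sets remained (8.11%), which is near the share over all probe sets.

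**Figure D1:**
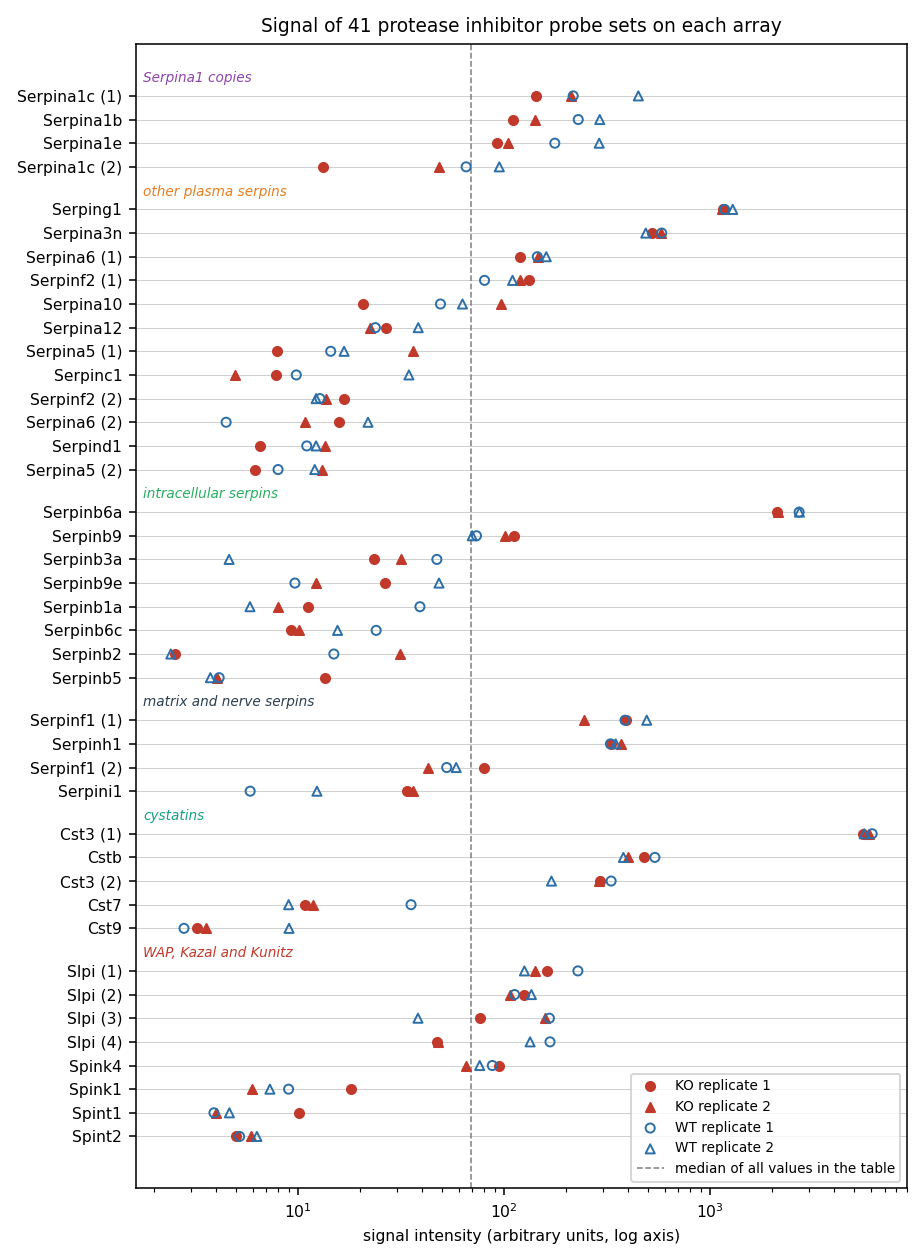
Signal intensity (arbitrary units, log axis) of each of the 41 protease inhibitor probe sets on the KO arrays (filled red) and WT arrays (open blue), grouped by role. Numbers in brackets count the probe sets of 1 gene from the brightest. Cst3, Serpinb6a and Serping1 are the brightest, the KO points of all 4 Serpina1 probe sets lie left of the WT points, and 22 probe sets have means below the median probe set.

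**Figure D2:**
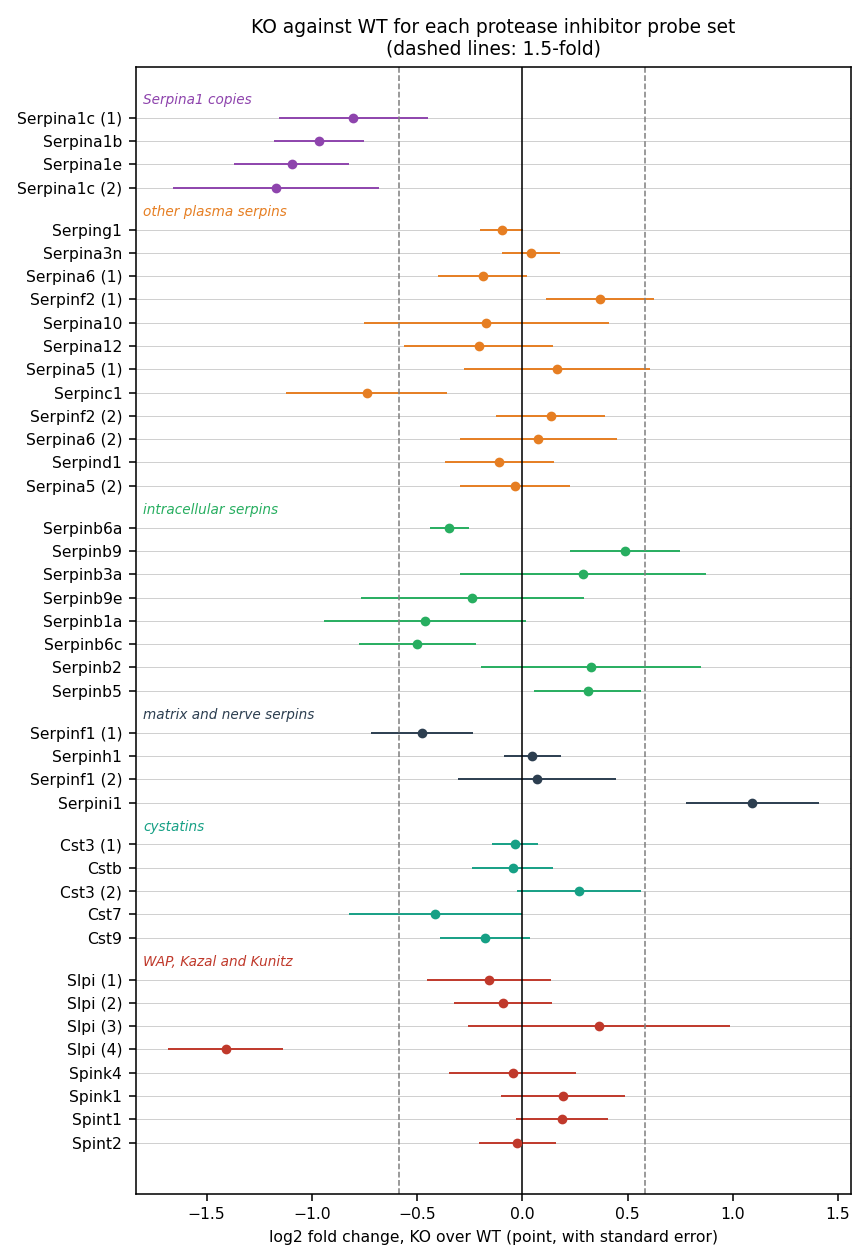
Log2 fold change (KO over WT) of the same 41 probe sets, with points for the limma estimate and bars for its standard error. Dashed lines mark 1.5-fold. The 4 Serpina1 probe sets, Serpinc1 and 1 Slpi probe set lie left of the lower line, and only Serpini1 lies right of the upper one.

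The Serpina1 genes encode alpha-1-antitrypsin, the plasma inhibitor of neutrophil elastase, which the liver secretes. The mouse has several near-identical copies side by side on chromosome 12. Their similarity is shown by the stretch upstream of 5 copies in the C57BL/6J reference (RefSeq, GRCm38.p6, minus strand), 116 bases each, printed 5′ to 3′ with the letters GTTAAT in capitals. GTTAAT is the half-site bound by HNF1, a transcription factor of liver.
Serpina1a, chr12:103863625-103863740: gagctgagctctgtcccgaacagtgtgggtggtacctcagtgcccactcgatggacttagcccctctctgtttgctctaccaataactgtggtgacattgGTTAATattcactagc
Serpina1b, chr12:103738200-103738315: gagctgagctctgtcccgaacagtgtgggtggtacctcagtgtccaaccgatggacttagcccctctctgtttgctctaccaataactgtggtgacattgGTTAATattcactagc
Serpina1c, chr12:103904962-103905077: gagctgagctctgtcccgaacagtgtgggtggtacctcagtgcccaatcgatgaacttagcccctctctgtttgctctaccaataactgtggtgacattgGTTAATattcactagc
Serpina1d, chr12:103773634-103773749: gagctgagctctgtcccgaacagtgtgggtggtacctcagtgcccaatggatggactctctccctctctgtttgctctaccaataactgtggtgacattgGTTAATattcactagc
Serpina1e, chr12:103956960-103957075: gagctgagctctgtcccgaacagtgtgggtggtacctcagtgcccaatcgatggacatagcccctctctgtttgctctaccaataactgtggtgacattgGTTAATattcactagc

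Any 2 of these stretches were identical at 94.0% to 98.3% of their bases. GTTAAT or its reverse complement occurs in the 250 bases upstream of the annotated start in 6.43% of 32851 RefSeq start sites. Among the inhibitor genes, 25 of 32 had such a window, and 4 held the motif: Serpina1b, Serpina1c, Serpina1e and Spint1. A match describes the letters and does not show a bound site.

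On every Serpina1 probe set, the higher KO signal was below the lower WT signal. The Serpina1b probe set (101576_f_at) read 110.4 and 141 in KO, against 228 and 290.3 in WT, a KO mean at 48.5% of WT (log2 fold change -0.97 ± 0.21, adjusted p = 0.803). Serpina1e (101574_f_at) read 92.3 and 104 in KO, against 176 and 289 in WT (-1.10 ± 0.27). On the Serpina1e probe set the KO pools lay closer together than the WT pools. On that of Serpina1b the pools were about equally far apart in both genotypes on the log2 scale. WT replicate 2 was the highest array on both probe sets.

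Serpina1c was read by a pair of probe sets. The brighter (101565_f_at) read 142 and 209 in KO and 216 and 447 in WT (log2 fold change -0.80 ± 0.35), so KO replicate 2 and WT replicate 1 nearly met. The dimmer (100329_at) read 13.2 and 48.4 in KO and 65.2 and 94.5 in WT (-1.17 ± 0.49). Probe sets of all 3 named copies were highest in WT replicate 2. Without WT replicate 2 the brighter Serpina1c probe set differed by -0.30, and without KO replicate 1 the pair differed by -0.54 and -0.57, less than 1.5-fold.

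The 3 probe sets that the annotation gives to several Serpina1 copies showed the same order. They read 96.7 and 116 in KO against 174 and 234 in WT, 105 and 65.9 in KO against 156 and 148 in WT, and 11.6 and 40.4 in KO against 74.9 and 155 in WT. All 7 Serpina1 probe sets were therefore without overlap and lower in KO, where 17.6% of all probe sets were. Because such probes can bind RNA of more than 1 copy, the copy that differed cannot be named.

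Markers of liver were mostly lower in KO, as the Serpina1 signals were. Of 24 liver markers measured, none of which is a serpin, 17 were lower and 7 higher in KO. The genotypes did not overlap for 10 lower markers and 1 higher one (45.8%, beside 34.6% of all probe sets). The summed signal of the list, much of it from its 2 brightest markers, was 2279 and 2330 in KO, against 3840 and 3752 in WT. On the log2 scale, relative to the WT mean, the median marker stood at -0.60 and -0.46 in KO and -0.32 and 0.32 in WT. WT replicate 1 thus lay nearer to the KO arrays than to WT replicate 2. Albumin (Alb) read 78.7 and 95.2 in KO and 230.0 and 1016 in WT. The brightest markers were Cyp2e1, an oxidising enzyme, at 1008 and 1095 in KO and 1484 and 563 in WT, and the haemoglobin carrier haptoglobin (Hp), at 758 and 547 in KO and 1505 and 934 in WT. Haptoglobin is also made by fat. No listed marker was at 0, and 14 of the 24 were highest in WT replicate 2, as were 6 of the 7 Serpina1 probe sets. The part of liver-type RNA in the Serpina1 difference was not tested, and in RNA of whole muscle fewer cells of a type and less RNA per cell cannot be told apart.

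**Figure D3:**
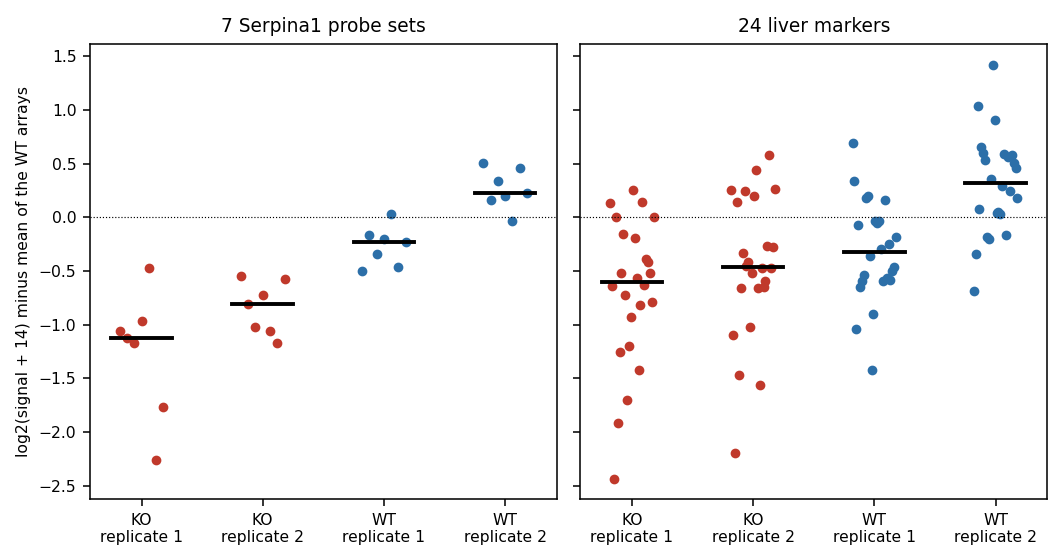
Level of 7 Serpina1 probe sets (left panel) and 24 liver markers (right panel) on each array, as log2(signal + 14) minus the mean of the WT arrays, with black bars for the median of each array. The Serpina1 medians are -1.13 and -0.81 on the KO arrays and -0.23 and 0.23 on the WT arrays. The liver medians are -0.60 and -0.46 on the KO arrays and -0.32 and 0.32 on the WT arrays.

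The other plasma serpins lay on both sides. Of their 12 probe sets, from 9 genes, 5 were higher and 7 lower in KO, and 4 (33.3%, beside 34.6% of all probe sets) separated the genotypes. Serping1, the C1 inhibitor that holds the classical complement pathway in check, was the brightest, at 1147 and 1143 in KO and 1172 and 1283 in WT (log2 fold change -0.10 ± 0.10). Serpina3n, a relative of human alpha-1-antichymotrypsin, read 518 and 578 in KO and 580.1 and 486 in WT (0.04 ± 0.14, 95% interval -0.29 to 0.38). Neither gene thus showed a difference beyond its error.

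Serpina6 encodes corticosteroid-binding globulin, which carries glucocorticoids in blood and does not inhibit proteases. Its brighter probe set read 119 and 146 in KO and 144 and 160 in WT (log2 fold change -0.19 ± 0.21), with overlap of the genotypes. Serpinf2, or alpha-2-antiplasmin, the inhibitor of the clot-dissolving protease plasmin, was higher in both KO arrays on each of its probe sets. The brighter read 131 and 119 in KO, against 80.1 and 109.6 in WT (0.37 ± 0.26), and the dimmer 16.6 and 13.6 in KO, against 12.7 and 12.2 in WT (0.14 ± 0.26). Both differences were within 1.5 standard errors of 0, and the brighter was 0.17 without WT replicate 1.

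Serpinc1, or antithrombin, which blocks thrombin, was dim. It read 7.78 and 4.94 in KO and 9.77 and 34.4 in WT (log2 fold change -0.74 ± 0.38), and the difference was carried by WT replicate 2, without which it was -0.23. With 4 times the pseudocount it was -0.31, also short of 1.5-fold. The remaining plasma serpins overlapped between genotypes. They were Serpina10, which inhibits clotting factor X with protein Z, Serpina12 (vaspin, secreted by fat), Serpina5 (protein C inhibitor), Serpind1 (heparin cofactor II) and the dim probe set of Serpina6. Serpina10 read 20.5 and 96.4 in KO and 48.9 and 62.6 in WT, so the KO pools lay on either side of WT. The brighter probe set of Serpina5 read 7.89 and 35.9 in KO and 14.4 and 16.7 in WT, again with WT between the KO pools. Log2 fold changes of these 5 genes lay between -0.21 (Serpina12) and 0.16 (Serpina5).

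Among the intracellular serpins, Serpinb6a was bright and lower in both KO pools, with little spread. Serpinb6a, whose human counterpart inhibits cathepsin G, read 2110 and 2128 in KO and 2695 and 2703 in WT. The KO mean of 2119 ± 12.9 (SD, n = 2) was 78.5% of the WT mean of 2699 ± 5.61 (SD, n = 2), and the log2 fold change was -0.35 ± 0.09 (adjusted p = 0.803). The genotype difference was thus many times the spread within either genotype, but it was under 1.5-fold and did not pass adjustment. The standard error is wider than these SDs because limma borrows spread from all probe sets. Leaving out any 1 array gave values from -0.35 to -0.34.

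Serpinb9, which protects cells from granzyme B of cytotoxic lymphocytes, stood the other way. It read 111 and 100.9 in KO and 73.2 and 69.8 in WT, a KO mean at 148% of WT (log2 fold change 0.49 ± 0.26, just under the 1.5-fold line). Of 13 lymphocyte markers, 3 were higher in KO without overlap (23.1%) and 0 lower, beside 17.0% and 17.6% of all probe sets. On average, 10 of the 13 markers were higher and 3 lower in KO (median 0.36). On the log2 scale, relative to the WT mean, the median marker stood at 0.16 and 0.49 in KO and 0.51 and -0.51 in WT. WT replicate 1 was thus at least as high as the KO arrays, and WT replicate 2 was the low one. The sum of the markers, most of it from the antibody heavy chain gene Ighm, was 3729 and 5251 in KO and 6034 and 3548 in WT. Their part in the Serpinb9 difference was not tested. Granzyme B (Gzmb) itself read 37.9 and 44.5 in KO and 38.3 and 16.9 in WT.

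The other 6 intracellular serpins were dim, with means of 6.34 to 26.6. Serpinb6c read 9.21 and 10.1 in KO and 23.9 and 15.5 in WT (log2 fold change -0.50 ± 0.28) and was the only one of the 6 without overlap. Serpinb1a, an inhibitor of neutrophil elastase, read 11.1 and 7.97 in KO, against 38.9 and 5.82 in WT. Serpinb2, plasminogen activator inhibitor 2, read 2.52 and 31.0 in KO and 14.9 and 2.40 in WT. In these genes single arrays set the means, as they did in Serpinb3a, Serpinb5 (maspin) and Serpinb9e. The probe set given to Serpinb9e and 3 close copies read 64.0 and 47.9 in KO and 82.6 and 60.4 in WT.

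Serpini1, or neuroserpin, the inhibitor of tissue plasminogen activator in nervous tissue, was the only inhibitor at least 1.5-fold higher in KO without overlap. Its probe set (99494_at) read 33.5 and 35.9 in KO and 5.84 and 12.3 in WT (log2 fold change 1.09 ± 0.32, adjusted p = 0.803). All 4 signals are below the median probe set, and the gene was brighter than only 26.2% of probe sets. With 4 times the pseudocount the value was 0.48, short of 1.5-fold. Of 10 nerve and Schwann cell markers, 6 were higher and 4 lower in KO. Without overlap, 3 were higher and 2 lower (50% together, beside 34.6% of all probe sets). The 3 higher ones were the myelin genes Mag and Mal and the neurofilament gene Nefl. Mag read 87.5 and 104 in KO and 47.4 and 73.5 in WT. Mal read 57.6 and 73.8 in KO and 40.2 and 55.5 in WT. The 2 lower ones were the other neurofilament genes of the list, Nefh and Nefm. Log2 fold changes of Nefl, Nefh and Nefm were 0.36, -0.33 and -0.37, so neurofilament genes went both ways. The part of nerve RNA in the Serpini1 difference was not tested. The sum of the list was 1072 and 1038 in KO and 898 and 1138 in WT. Tissue plasminogen activator itself (Plat) read 197 and 118 in KO and 175 and 181 in WT.

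The collagen chaperone Serpinh1 (Hsp47), which helps procollagen fold in the endoplasmic reticulum, read 330 and 369 in KO and 327 and 347 in WT (log2 fold change 0.05 ± 0.14, 95% interval -0.28 to 0.38). Of 15 measured collagens and collagen-modifying enzymes, 9 were higher and 6 lower in KO, with a median of 0.01, and none passed. Col1a1 read 1705 and 1573 in KO and 1715 and 1306 in WT, and Col1a2 read 1176 and 1150.1 in KO and 1235 and 1075 in WT. The smallest p values in that list belonged to P4hb, a subunit of the collagen prolyl hydroxylase and Col5a1, and neither was called. P4hb read 124 and 170.3 in KO and 97.1 and 112 in WT (0.43 ± 0.25), and Col5a1 read 379 and 394 in KO and 334 and 363 in WT (0.15 ± 0.13).

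Serpinf1 encodes PEDF, a secreted factor that limits vessel growth. Its brighter probe set read 389 and 244 in KO and 385 and 491 in WT (log2 fold change -0.48 ± 0.24), so KO replicate 1 lay within the WT range. Leaving out KO replicate 1 gave -0.80, and leaving out KO replicate 2 gave -0.15. The dimmer read 79.9 and 42.6 in KO and 52.5 and 58.3 in WT (0.07 ± 0.38). The probe sets therefore differed in sign as well as in level.

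Of the 5 cystatin probe sets, 0 separated the genotypes, beside 34.6% of all probe sets, and so few say little about the group. Cystatin C (Cst3), the main secreted cystatin of the body, was the brightest inhibitor, above 99.3% of all probe sets. It read 5527 and 5867 in KO and 6094 and 5579 in WT (log2 fold change -0.03 ± 0.11, 95% interval -0.30 to 0.23). Its dimmer probe set read 290 and 287 in KO and 330 and 169 in WT (0.27 ± 0.29). The cytosolic cystatin B (Cstb) read 476 and 400.1 in KO and 538 and 378 in WT (-0.05 ± 0.19), both KO pools lying between the WT pools. Cystatin F (Cst7), of leukocyte lysosomes, and Cst9 were dim and differed by -0.41 ± 0.41 and -0.18 ± 0.21.

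Of the 10 cysteine proteases that cystatins block, 6 were higher and 4 lower in KO (median 0.06), and none passed. The brightest, cathepsin B (Ctsb), read 2158 and 2132 in KO and 2426 and 2073 in WT, and cathepsin L (Ctsl) read 693 and 446 in KO and 716 and 588 in WT. Cathepsin H (Ctsh) had the smallest p and was higher without overlap, at 205 and 185 in KO and 136 and 104 in WT (log2 fold change 0.65 ± 0.22). Cathepsin C (Ctsc), which activates serine proteases of immune cells, read 149.9 and 141 in KO and 125 and 104 in WT (0.32 ± 0.22).

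Slpi, the secretory leukocyte protease inhibitor of mucosal and skin secretions, gave discordant readings on its 4 probe sets. One of them (162333_r_at) read 47.1 and 47.7 in KO and 167 and 133 in WT, with a KO mean at 31.6% of WT and a log2 fold change of -1.41 ± 0.27 (adjusted p = 0.803). The brightest (161650_at) read 160 and 141 in KO and 227 and 125 in WT (-0.16 ± 0.29). A further one read 124 and 106 in KO and 112 and 135 in WT (-0.09 ± 0.23), and the last 75.9 and 158 in KO and 165 and 38.1 in WT (0.36 ± 0.62). Only 1 of the 4 thus separated the genotypes, and it was the dimmest on average. The ending r in its name is the manufacturer's mark for a probe set that did not meet all design rules, and 162329_r_at, the second brightest, carries it too. Skin and hair markers summed to 3304 and 3569 in KO and 3048 and 2157 in WT, and 11 of 15 were higher. The largest part of the sum was Sprr1b, at 2039 and 1938 in KO and 1456 and 1401 in WT. Without overlap, 4 of the 15 were higher and 2 lower (40% together, beside 34.6% of all probe sets). Macrophage and neutrophil markers summed to 1316 and 1353 in KO and 1369 and 1412 in WT.

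**Figure D4:**
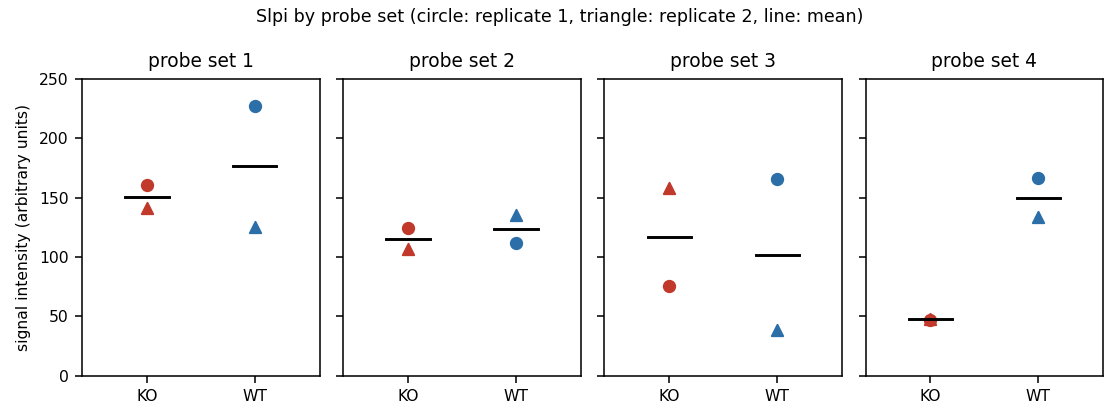
Signal intensity of Slpi on each of its 4 probe sets, from the brightest (left) to the dimmest (right), in KO (red) and WT (blue), with circles for replicate 1, triangles for replicate 2 and lines for the mean of each genotype. Only on the rightmost do both KO values, 47.1 and 47.7, lie below both WT values, 167 and 133.

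The Kazal and Kunitz inhibitors were dim apart from Spink4. Spink4, of intestinal goblet cells, read 93.8 and 65.3 in KO and 87.4 and 75.9 in WT (log2 fold change -0.05 ± 0.30). Spint1 and Spint2, membrane inhibitors of the hepatocyte growth factor activator, had means of 5.66 and 5.58. Spink1 encodes the trypsin inhibitor that pancreatic acinar cells store with their enzymes, and it read 18 and 5.96 in KO and 8.97 and 7.28 in WT (0.19 ± 0.30).

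Spink1 was thus dim on all 4 arrays. It read highest in KO replicate 1, as did 15 of 16 exocrine pancreas markers. Summed over 16 exocrine pancreas markers, the signal was 14647 and 4617 in KO and 2300.2 and 2180.4 in WT, and 13 of the 16 were higher in KO without overlap, beside 17.0% of all probe sets. Trypsin 2 (Prss2) read 2639 and 477 in KO and 242 and 168 in WT. Chymotrypsinogen B (Ctrb1) read 3467 and 1370.3 in KO and 589 and 661 in WT.

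Of the 31 measured serine proteases that these inhibitors block, 19 were higher and 12 lower in KO, with a median of 0.09, and none passed. The genotypes did not overlap in 11 of the 31 (35.5%, beside 34.6% of all probe sets). The 5 that also stand in the pancreas list were all higher without overlap, whereas the other 26 were 14 higher and 12 lower (median 0.05), with 3 separated in each direction. Among those 26, the kallikrein Klk1 was higher without overlap (237 and 48.3 in KO, 29.0 and 11.6 in WT), as was clotting factor VII (F7, 173 and 233 in KO, 142 and 131 in WT). Klk1 was highest in KO replicate 1, as were 15 of the 16 pancreas markers. The part of pancreas RNA in the Klk1 difference was not tested. Coagulation factor X (F10) was lower without overlap, at 10.5 and 9.41 in KO and 37.7 and 31.7 in WT. Those 3 were chosen after their values were seen. Chymotrypsin-like Ctrl had the smallest p of the list, at 574 and 472 in KO and 297 and 309 in WT (0.75 ± 0.14).

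Protease inhibitors whose symbols lay outside the set were mostly lower in KO, without passing. Of 20 measured, 6 were higher and 14 lower (median -0.22), and the genotypes did not overlap in 9, all lower (45.0%, beside 34.6% of all probe sets). The kininogen Kng1, whose product carries cystatin domains, read 40.4 and 17.8 in KO and 80.2 and 129 in WT (log2 fold change -1.48 ± 0.42). The murinoglobulin Mug1, a plasma protease trap, read 4.61 and 8.0 in KO and 15.7 and 32.6 in WT (-0.88 ± 0.32). These are liver products like Serpina1, and 13 of the 20 genes were highest in WT replicate 2. The 2 brightest of the list differed little: Timp3, which inhibits matrix metalloproteinases, read 1381 and 1197 in KO and 1151 and 1379 in WT, and Pebp1, a kinase-binding protein, read 418 and 397 in KO and 450.1 and 424 in WT (-0.10 ± 0.12).

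Receptors and cofactors that bind serpins were split, with 5 of 10 higher and 5 lower in KO (median -0.08) and none called. Lrp1, which clears serpin-protease complexes, was lower without overlap, at 535 and 518 in KO and 686 and 567 in WT (log2 fold change -0.24 ± 0.13). Its relative Vldlr read 152 and 220.3 in KO and 270.3 and 312 in WT (-0.63 ± 0.21). The heparan sulfate proteoglycan Sdc4 was higher, at 298 and 254 in KO and 207 and 226 in WT (0.33 ± 0.16).

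**Figure D5:**
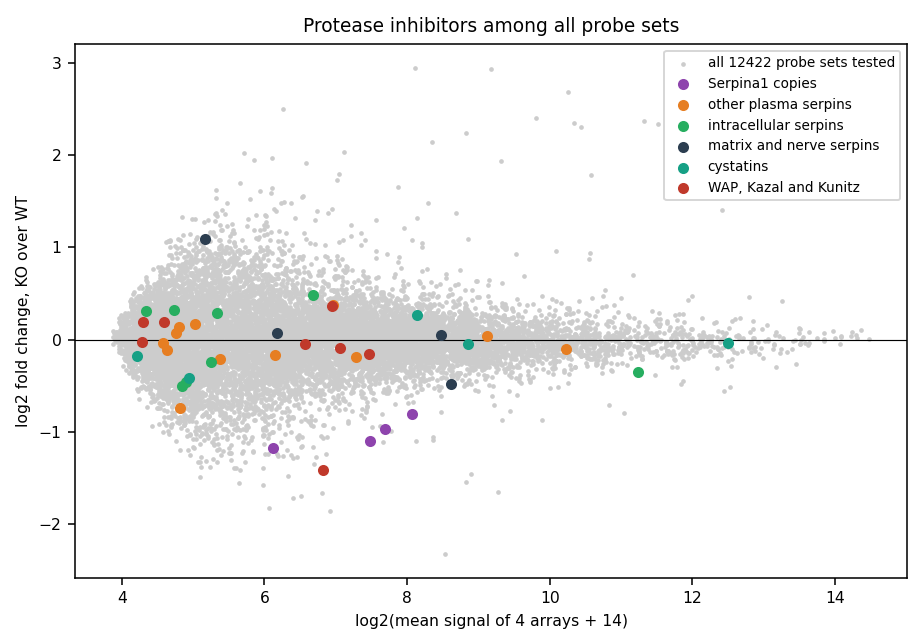
Log2 fold change (KO over WT) against level, as log2(mean signal of 4 arrays + 14), for all 12422 probe sets (grey) and the protease inhibitors by role (coloured). The 4 Serpina1 probe sets and 1 Slpi probe set lie between -0.80 and -1.41, and Cst3, with a mean of 5767, lies near 0.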

How the data were processed

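The deposited table holds a linear signal intensity for each probe set on each array. How the authors corrected background and summarised probes, and which probes were detected, the labels do not say. The deposited intensities had been scaled by the authors or their software: leaving out 2% of probe sets at either end, every array averaged 200.2, so they were used as they stood. Of 12488 probe sets, 66 controls were left out. Genes were named from the platform annotation where it gives 1 symbol, updated by gene identifier to the mouse reference GRCm38.p6 (10817 of 10833 found). A pseudocount of 14 (20% of the median) was added before log2, and genotype was fitted with limma (version 3.58.1, R 4.3.3; lmFit, then trended eBayes). P-values were Benjamini-Hochberg adjusted over all 12422 probe sets, with no filter on level. The fit was tested on simulated data. The number of arrays limits the precision. Groups come from sample titles, since the genotype and tissue fields are swapped in the labels. All members are named. Values on every array are given for probe sets at least 1.5-fold apart without overlap, for the 10 brightest and for the brighter probe set of a gene with several. From each list of proteases, other inhibitors, receptors and collagens they are given for the 2 genes with the smallest p and the 2 brightest. Other values were chosen after being seen. Members and lists were chosen with earlier results of these data known. Lists used the brightest probe set of each gene. Alternatives were larger and smaller pseudocounts, quantile normalization, a limit to brighter probe sets, no trend, a replicate block and each array left out.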

Additional observations from a re-analysis of the deposited data

How the results depend on the processing

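With 2 arrays per genotype and no detection calls, dim probe sets are loosely measured. Counts of called probe sets were 0 for all probe sets, for the inhibitors and for the protease, receptor and collagen genes under a larger and a smaller pseudocount, quantile normalization, the limit to brighter probe sets, no intensity trend, the replicate block and each array left out. The count of inhibitor probe sets at least 1.5-fold apart without overlap, 7 over all arrays, was 4 among probe sets above the median, which leaves out dim ones, and 8 to 13 with 1 array left out (13 without WT replicate 1, where a lone WT array can overlap less). The share of all probe sets was not counted in these settings. Of the 6 lower ones over all arrays, 2 were left without the Serpina1 copies, an alternative chosen after seeing the data. Log2 fold changes of even genes turned direction with 1 array left out. They ranged from -0.098 to 0.029 for Cst3, from -0.18 to 0.72 for its dimmer probe set, from -0.29 to 0.20 for Cstb, from -0.031 to 0.12 for Serpinh1, from -0.083 to 0.17 for Serpina3n, from -0.43 to 0.76 for Serpina5 and from -0.55 to 0.24 for the brightest Slpi probe set. With quantile normalization Cst3 differed by 0.016. The cause was not tested. The 7 probe sets past 1.5-fold turned direction in 0 of 67 values under these settings. They were picked for having no overlap, which fixes their direction in every setting except quantile normalization. The count of 0 is therefore no test of their stability. Replicate numbers did not pair the arrays (correlation of KO and WT replicate differences over probe sets 0.003). In this balanced layout a replicate block leaves fold changes and overlap as they were. The 7 inhibitor probe sets 1.5-fold apart without overlap, 6 of them lower, therefore could not change with it.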
